A study of Mus musculus with 12 samples.

Results

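The genes Spib, Bcl11a, Runx2, Runx1, Zeb2, Cbfa2t3 and Ikzf1 encode 7 nuclear regulators with known roles in plasmacytoid dendritic cells (pDCs) besides E2-2, the product of Tcf4. They were taken by name from a fixed list, which was chosen with earlier results of these data known. These are 7 of 21754 genes in the count table, and all 7 passed the filter on low counts (mean of 1 or more), as did 15293 genes in all. RNA was measured in 12 bulk libraries of C57BL/6 mouse bone marrow (an inbred strain), with 3 libraries for each of 4 sorted populations and no treatment. Siglec-H-negative precursors of conventional dendritic cells (pre-cDCs) were compared with Siglec-H-positive precursors low in CCR9 and B220 (lo-lo), with Siglec-H-positive precursors low in CCR9 but high in B220 (lo-hi), and with pDCs, which were high in both. The study names 3 individual mice, and the p-values below measure the spread between these 12 libraries. Each population is a surface-marker gate, so that a gate can hold more than 1 cell type, and in bulk RNA fewer expressing cells and less RNA per cell cannot be told apart.

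As background, pDCs are the main producers of type I interferon, and E2-2, an E protein that binds E-box DNA, sets and maintains their identity. SPI-B, an ETS factor, and BCL11A, a zinc finger factor, are needed for pDC development, and RUNX2 is needed for the exit of mature pDCs from bone marrow. RUNX1 is a regulator of haematopoietic stem and progenitor cells, and ZEB2 represses Id2, whose product holds E proteins back. ETO2, the product of Cbfa2t3, is a corepressor that joins E proteins and also represses Id2, and Ikaros, the product of Ikzf1, is a zinc finger factor of the lymphoid lineages and pDCs.

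The libraries were placed in populations by a match of gene orders and not by the deposited labels, which differ from it in 8 of the 12 wells. The study's published source values list 28 transcription factors in 12 named samples. For each named sample, 1 well ranked all 378 gene pairs in the same order, and the next best well differed in at least 8 pairs. Of the 7 genes described here, 6 are among those 28 factors, and the match made with the remaining 22 factors (231 pairs) gave the same 12 wells, with at least 5 pairs differing in the next best well. The label and the match name the same population in 4 wells, 1 per population. In these 4 wells alone, all 16 differences called below had the same sign. This outcome was fixed in advance and is no check of the match. In each of the 16 the libraries of the compared populations did not overlap, and the 4 wells are among those that gave the calls. Grouped by the deposited labels, edgeR called 0 of the 7 genes, and 0 had an unadjusted p under 0.05, whereas over all genes it called 0 and 171 lay under that unadjusted value in the test over all populations. Every direction below therefore rests on the matched wells.

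Total counts ranged from 1801463 to 5995971 per library, so that 3 counts came to between 0.50 and 1.67 CPM (counts per 1e+06 counts of the library). CPM values are given after TMM scaling of the library sizes. The 8 pDC markers together (Siglech, Bst2, Ccr9, Klra17, Cd8a, Tlr7, Tlr9 and Irf7) summed to 692 to 1128 CPM in pre-cDC, 1612 to 2080.1 in lo-lo, 3537 to 4379 in lo-hi and 5487 to 5890.4 in pDC libraries. The 6 pre-cDC markers (Zbtb46, Csf1r, Id2, Batf3, Cx3cr1 and Cd209a) summed to 553 to 895 CPM in pre-cDC and to between 199 and 324 in the other populations. Cd209a was the most abundant of them, at 427 CPM on average in pre-cDC, 104 in lo-lo, 166 in lo-hi and 234 in pDC. It was called higher in pDC than in lo-lo, where Csf1r, Zbtb46 and Cx3cr1 were called lower. Of the markers of both lists, Irf7, Zbtb46, Id2 and Batf3 are among the 28 factors of the match. The other 7 pDC markers summed to 620.3 to 1032 CPM in pre-cDC, 1546 to 1988 in lo-lo, 3410.3 to 4169 in lo-hi and 5274 to 5347 in pDC, and the other 3 pre-cDC markers to 467 to 795 in pre-cDC and 167 to 306 elsewhere. The lists hold no markers of lo-lo or lo-hi themselves. Among markers of other cells, 8 neutrophil genes summed to between 3203 and 20540 CPM, with every pDC library (3203 to 6515) below every lo-hi library (9602 to 20540), 8 erythroid and megakaryocyte genes to between 2994 and 11041, and T and NK cell, macrophage and B lineage genes stayed at or below 11.01, 23.0 and 158 CPM in each library. None of the 8 neutrophil genes was called in any comparison by edgeR. Between pDC and lo-hi, however, 6 of them had an unadjusted p under 0.05, as had 1711 of all 15293 genes. The 5 plasma cell genes summed to 149 to 327 CPM in pre-cDC, 165 to 215 in lo-lo, 267 to 339.6 in lo-hi and 277 to 534 in pDC, and of them Sdc1 was called higher in lo-lo, lo-hi and pDC than in pre-cDC and Xbp1, the gene of a secretory cell factor, higher in lo-hi and pDC than in pre-cDC and in lo-lo. Of the other lists, Cd79b was called higher in pDC than in lo-lo (85.0 against 52.9 CPM on average) and Adgre1 lower in pDC than in pre-cDC (0.57 against 3.05). The part of these cells in the results was not tested.

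Over the 4 populations together, edgeR's quasi-likelihood test called 4 of the 7 genes at a Benjamini-Hochberg adjusted p under 0.01, against 19.8% of all genes tested. These were Spib (adjusted p = 1.58e-10), Runx1 (adjusted p = 1.77e-06), Runx2 (adjusted p = 5.16e-06) and Bcl11a (adjusted p = 2.15e-04). Ikzf1 and Cbfa2t3 missed the threshold, with adjusted p = 0.0130 and 0.0174 in the same edgeR test, and Zeb2 had adjusted p = 0.761. The study sorted all populations from 3 mice without tying a replicate number to a mouse. With the number as a block, edgeR called 6 of the 7 and 3708 of all 15293 genes, against 3029 genes without it. The share of the variance of log2 CPM that lay between populations was 97.6% for Spib, 90.6% for Runx2, 88.4% for Runx1, 79.6% for Bcl11a, 77.9% for Ikzf1, 63.7% for Cbfa2t3 and 19.0% for Zeb2.

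**Figure D1:**
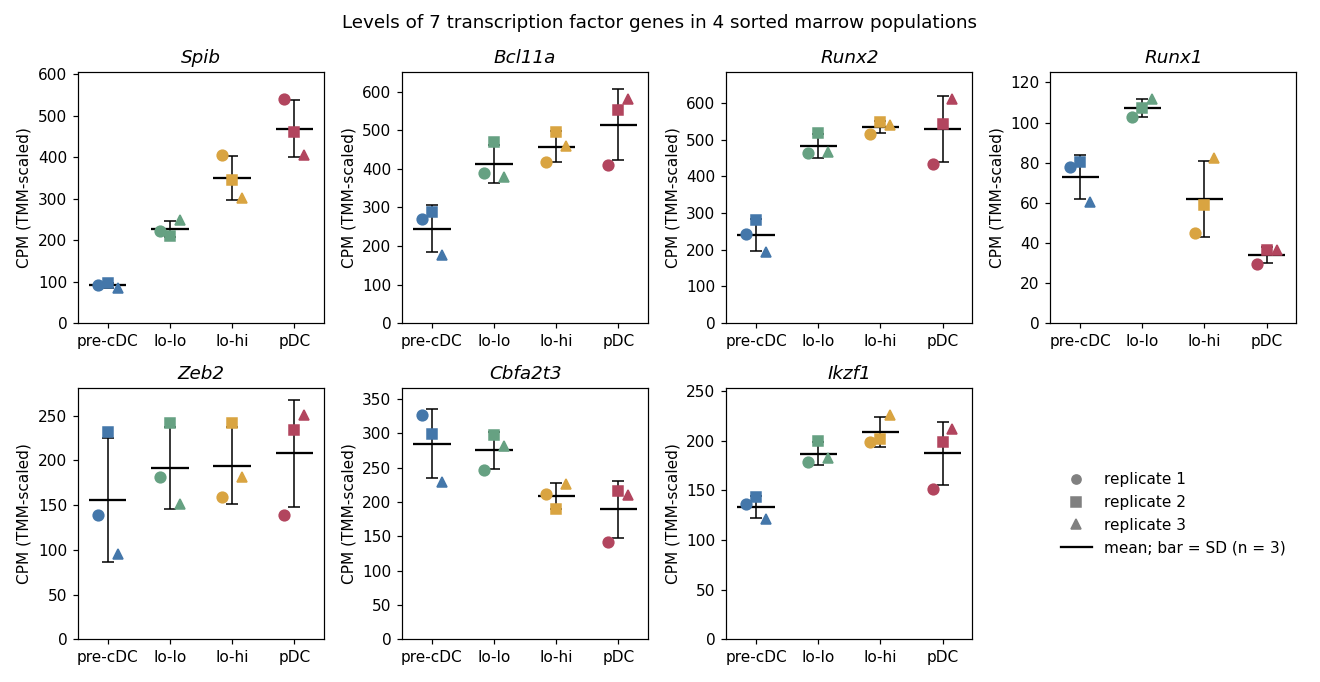
TMM-scaled CPM (vertical axes, from 0) of the 7 genes in the 12 libraries, by population; symbols mark replicates, horizontal lines the mean and error bars the SD (n = 3). Spib had a mean of 91.5 CPM in pre-cDC and 469 in pDC, the mean of Runx1 was highest in lo-lo (107) and lowest in pDC (34.1), and the Zeb2 libraries overlapped in every population.

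Spib, on the minus strand at chr7:44525993-44532071 (GRCm38), rose from pre-cDC to lo-lo and from lo-lo to lo-hi and gave the largest fold change of the 7 genes. It was at 91.9, 97.6 and 84.9 CPM in the pre-cDC libraries, at 222, 209 and 248 in lo-lo, at 405, 344 and 300.4 in lo-hi and at 541, 461 and 405 in pDC. No pre-cDC library reached a lo-lo library and no lo-lo library reached a lo-hi library, while the highest lo-hi and the lowest pDC library both stood at 405 CPM. Spib was 2.48-fold higher in lo-lo than in pre-cDC (log2 fold change 1.31 ± 0.16, SE; edgeR, adjusted p = 5.21e-06) and 1.55-fold higher in lo-hi than in lo-lo (0.63 ± 0.15, adjusted p = 0.00803). The latter call was lost without any 1 lo-lo library, lo-hi replicate 1 or 2 or pDC replicate 2 (0.53 to 0.71). From lo-hi to pDC the log2 difference of 0.42 ± 0.15 missed the threshold (adjusted p = 0.209), with a 95% interval of 0.11 to 0.74. Against pre-cDC, Spib was 5.14-fold higher in pDC (2.36 ± 0.16, adjusted p = 3.42e-11).

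Bcl11a (chr11:24078056-24174123, plus strand) and Runx2 (chr17:44495987-44814797, minus strand) rose at the first step, and no difference among lo-lo, lo-hi and pDC was called for them. Bcl11a was at 270.1, 289 and 177 CPM in pre-cDC, at 389.8, 470.0 and 379 in lo-lo, at 418, 496 and 458 in lo-hi and at 409, 553 and 581 in pDC. All pre-cDC libraries lay below all others, and the 3 Siglec-H-positive populations overlapped. The difference between lo-lo and pre-cDC was 1.68-fold (log2 0.75 ± 0.18, edgeR, adjusted p = 0.00838), a call kept without pre-cDC replicate 2 or pDC replicate 1 or 3 and lost without any 1 of the other 9 libraries (log2 0.56 to 0.83 in those fits). In pDC it was 2.10-fold above pre-cDC (1.07 ± 0.18, adjusted p = 3.05e-05).

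Runx2 was at 243, 281 and 194 CPM in pre-cDC, at 462, 519 and 466 in lo-lo, at 515, 548 and 539 in lo-hi and at 433, 542 and 611 in pDC. As for Bcl11a, every pre-cDC library lay below every library of the other populations, which overlapped. It was 2.02-fold higher in lo-lo than in pre-cDC (log2 1.01 ± 0.16, edgeR, adjusted p = 1.28e-04), a call kept with each library left out. Between lo-hi and lo-lo the log2 difference was 0.15 (95% interval -0.17 to 0.47), and the one of pDC against lo-hi was -0.01 (-0.34 to 0.31), so that neither step showed a change larger than the spread. The opposite-strand genes Supt3 and Runx2os1, which overlap Runx2, held 5.62% and 2.89% as many counts as Runx2, and reads from overlapping genes cannot be told apart where the counting is not stated to use strand.

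Runx1 (chr16:92601466-92826149, minus strand) followed another course, with its highest mean in lo-lo and its lowest in pDC. It was at 77.9, 80.5 and 60.5 CPM in pre-cDC, at 103, 107 and 112 in lo-lo, at 44.7, 59.0 and 82.2 in lo-hi and at 29.3, 36.4 and 36.5 in pDC. The lo-lo libraries stood above all others and the pDC libraries below all others, while the lo-hi libraries spanned the pre-cDC ones. Runx1 was 1.76-fold lower in lo-hi than in lo-lo (log2 -0.81 ± 0.19, edgeR, adjusted p = 0.00529), a call lost without pre-cDC replicate 1, any 1 lo-lo library or lo-hi replicate 1 or 2 (-0.58 to -0.83). It was 3.17-fold lower in pDC than in lo-lo (-1.66 ± 0.19, adjusted p = 2.89e-07) and 2.15-fold lower than in pre-cDC (-1.11 ± 0.20, adjusted p = 7.29e-05). The lo-lo level lay 0.56 ± 0.19 above pre-cDC on the log2 scale, which did not pass (adjusted p = 0.0826). From lo-hi to pDC the log2 difference was -0.85 ± 0.20, which edgeR did not call (adjusted p = 0.0177) while DESeq2 (adjusted p = 0.00633) and edgeR with the replicate block (adjusted p = 0.00318) did. Over the other filters, scalings and models the adjusted p ran from 9.63e-04 to 0.0255.

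**Figure D2:**
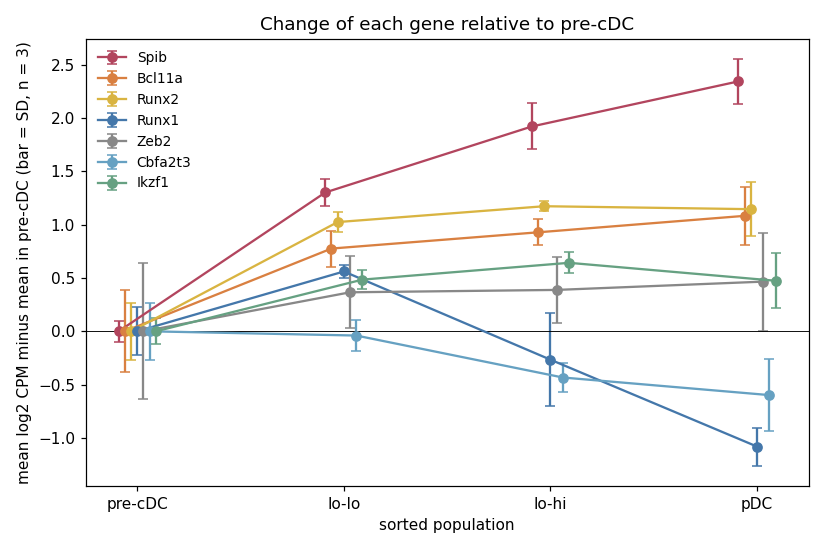
Mean log2 CPM of each gene in the 4 populations minus its mean in pre-cDC (vertical axis), with SD bars (n = 3). The mean of Spib is higher in each next population, although its last step (0.42) was not called, Bcl11a and Runx2 rose between pre-cDC and lo-lo, and the mean of Runx1 is highest in lo-lo and lowest in pDC.

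Cbfa2t3 (chr8:122625141-122699109, minus strand) was at 327, 299 and 229 CPM in pre-cDC and at 246, 298 and 281 in lo-lo. In lo-hi it was at 212, 189 and 227 CPM and in pDC at 142, 215 and 210.4. The pre-cDC and lo-lo libraries overlapped, and the pDC libraries all lay below both. Cbfa2t3 was 1.51-fold lower in pDC than in pre-cDC (log2 -0.59 ± 0.17, edgeR, adjusted p = 0.00921), close to the threshold, and this call was kept without pre-cDC replicate 3 and lost without any 1 of the other 11 libraries (-0.42 to -0.70). Against lo-lo the pDC difference was -0.54 ± 0.17 (adjusted p = 0.0235, and 0.00792 with the replicate block). Cbfa2t3 overlaps Gm20388, a gene annotated on the opposite strand with 355675 counts against 9073 for Cbfa2t3 over all libraries. As for Runx2, reads from the overlapping genes cannot be told apart where the counting is not stated to use strand. Gm20388 stood at 8058 ± 930.2 CPM (SD, n = 3) in pre-cDC and at 10015 ± 194 in pDC, a log2 difference of 0.31 ± 0.12 (SE) that was not called (adjusted p = 0.0581).

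Ikzf1 (chr11:11685003-11772926, plus strand) was at 136, 143 and 122 CPM in pre-cDC and at 178, 199.9 and 183 in lo-lo. It reached 199, 202 and 226 CPM in lo-hi and 151, 198 and 212 in pDC. Pre-cDC libraries were again below all others, and the Siglec-H-positive populations overlapped, with 1 pDC library (replicate 1) below all of lo-lo and lo-hi. Only the difference between lo-hi and pre-cDC was called, at 1.56-fold (log2 0.64 ± 0.16, edgeR, adjusted p = 0.00332), and it was lost without pre-cDC replicate 1 or 3 or lo-hi replicate 2 or 3 (0.58 to 0.69). In lo-lo and in pDC the values against pre-cDC were 0.49 ± 0.15 (adjusted p = 0.0651) and 0.48 ± 0.15 (adjusted p = 0.0178, and 0.00915 with the replicate block). Without pDC replicate 1 the latter was 0.62 and passed.

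Zeb2 (chr2:44983632-45117395, minus strand) did not separate the populations. Its libraries were at 139, 232 and 95.8 CPM in pre-cDC, at 181, 242 and 152 in lo-lo, at 159, 242 and 181 in lo-hi and at 139.6, 234 and 251 in pDC. The range within pre-cDC spanned most of the range of all libraries, and every pair of populations overlapped. The log2 difference between pDC and pre-cDC was 0.42 with a 95% interval of -0.31 to 1.15 (edgeR, adjusted p = 0.381). With this spread, a difference of either sign within the interval is compatible with the data. Replicate 2 lay above the population mean in 4 of 4 populations, by 0.40 on average on the log2 scale, and replicate 1 in 0 of 4. For Bcl11a and Runx2, replicate 2 also lay above the mean in 4 of 4 populations, by 0.18 and 0.11 on average. The antisense gene Zeb2os held 7.43% as many counts as Zeb2.

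**Figure D3:**
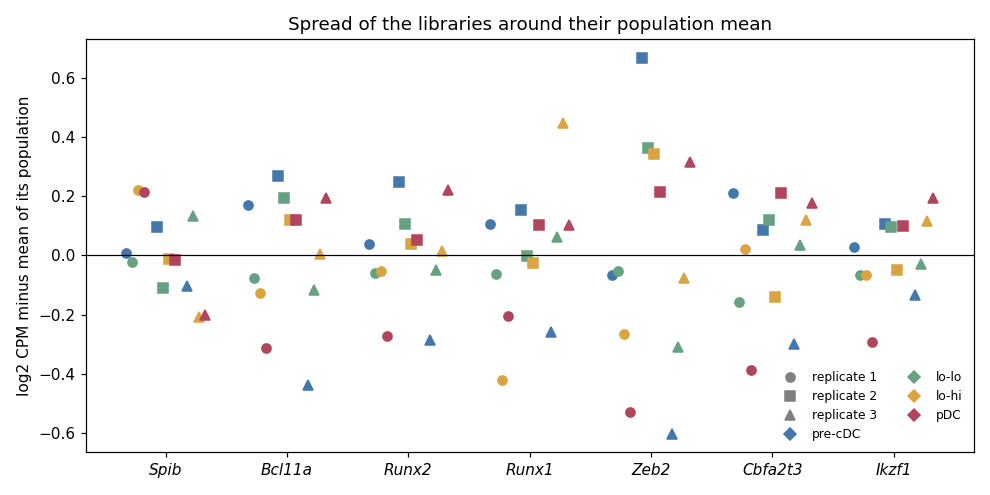
Deviation of each library from the mean of its population (vertical axis, log2 CPM) for the 7 genes; symbols mark the replicate and colours the population. The deviations of Zeb2 are the widest, with replicate 2 above 0 in 4 of 4 populations, as it also is for Bcl11a and Runx2.

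Step by step in this arrangement of the gates, the 7 genes gave 3, 2 and 0 calls. Between lo-lo and pre-cDC, 3 of 7 genes were higher (Spib, Runx2 and Bcl11a) and 0 lower, where 1.6% of all genes tested were called higher and 1.54% lower. The study had already named Spib, Runx2 and Bcl11a among genes higher in pDCs and lo-hi in these data. Their share of calls, here and in the other comparisons, is therefore no independent result. Between lo-hi and lo-lo, 1 was higher (Spib, background 2.19%) and 1 lower (Runx1, background 3.21%). Between pDC and lo-hi, edgeR called 0 of 7 against backgrounds of 0.111% higher and 0.883% lower. In that test 2 of the 7 (Spib and Runx1) had an unadjusted p under 0.05, as had 1711 of all 15293 genes. DESeq2 called 1 of the 7 (Runx1) and 200 of all genes. The step therefore had few calls for any gene, and the absence of calls among the 7 is near the background.

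Across more than 1 step, pDC against pre-cDC gave 3 higher (Spib, Runx2 and Bcl11a; background 10.6%) and 2 lower (Runx1 and Cbfa2t3; background 11%). Against lo-lo, pDC had Spib higher (background 6.24%) and Runx1 lower (background 7.53%). Between lo-hi and pre-cDC, 4 were higher (Spib, Runx2, Bcl11a and Ikzf1; background 6.42%) and 0 lower (background 6.72%), with Spib at 3.83-fold, Runx2 at 2.23-fold and Bcl11a at 1.87-fold. These comparisons share libraries and are not independent of each other. The median log2 difference of the 7 genes was 0.48 between pDC and pre-cDC, where the median of all genes tested was 0.01. It is the value of Ikzf1, which was not called there, and the 7 ran from -1.11 (Runx1) to 2.36 (Spib). As the genes were chosen with earlier results known, this median is no independent result either.

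**Figure D4:**
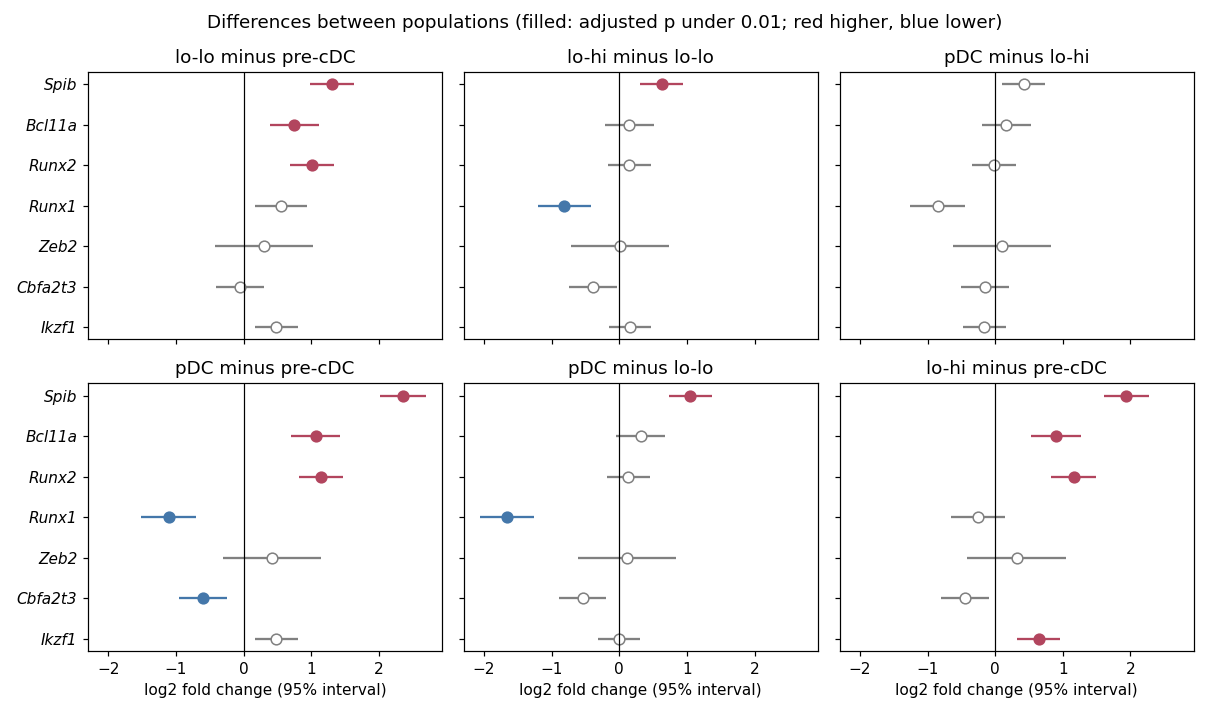
Log2 fold changes (points, horizontal axis) of the 7 genes in 6 comparisons, with 95% intervals from edgeR; filled points passed an adjusted p under 0.01, red for higher and blue for lower. Spib is filled in 5 of 6 panels, Zeb2 in none, and the panel of pDC minus lo-hi holds open points only.

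Next, relatives and partners of the 7 factors were examined, as lists chosen with earlier results of these data known. Of 49 listed genes, 46 were tested. Between pDC and pre-cDC, 5 were called higher and 5 lower (10.9% each, where 10.6% and 11% of all genes were), and their median log2 difference was -0.05. Between lo-lo and pre-cDC, 3 were higher (6.52%, where 1.6% of all genes were) and 1 lower (2.17% and 1.54%). Between pDC and lo-hi, 0 of 46 were called by edgeR and 7 had an unadjusted p under 0.05, as had 1711 of all 15293 genes.

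Among ETS factors, of which 2 of 13 were higher and 2 lower in pDC than in pre-cDC (10.6% and 11% of all genes), Spi1 ran opposite to Spib. Spi1, which encodes PU.1, the myeloid relative of SPI-B, was at 135, 110.2 and 152 CPM in pre-cDC, at 56.1, 55.4 and 66.9 in lo-lo, at 24.2, 29.7 and 23.6 in lo-hi and at 29.2, 19.1 and 15.9 in pDC. Its populations did not overlap up to lo-hi, and the log2 difference between pDC and pre-cDC was -2.58 ± 0.20 (edgeR, adjusted p = 1.87e-10). Ets1, a lymphoid ETS factor, rose from 8.03 ± 4.28 CPM (SD, n = 3) in pre-cDC to 55.9 ± 8.13 in pDC (log2 2.86 ± 0.25, SE, adjusted p = 1.68e-09). Elf1 was higher in pDC by 0.89 ± 0.17 (adjusted p = 1.99e-04), and Ets2, at 3.03 CPM or less on average in each population, was lower by 1.85 on the log2 scale (-1.85 ± 0.54, adjusted p = 0.00996). The Ets2 mean in pDC was 0.81 CPM, near the floor of 3 counts. Over the 4 populations together, Ets2 was not called (edgeR, adjusted p = 0.0531).

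Of 7 RUNX relatives and cofactors, 0 were higher and 2 lower in pDC than in pre-cDC (10.6% and 11% of all genes). Cbfb encodes the shared partner that stabilizes RUNX proteins on DNA. It was at 73.8, 62.4 and 64.9 CPM in pre-cDC, at 57.9, 59.8 and 62.6 in lo-lo, at 37.0, 36.9 and 44.6 in lo-hi and at 28.0, 29.3 and 26.6 in pDC. Its level was thus lower in every lo-hi and pDC library than in any pre-cDC or lo-lo library (pDC minus pre-cDC, log2 -1.26 ± 0.16, edgeR, adjusted p = 6.31e-07). Tle1, a Groucho-type corepressor, was lower by 0.98 on the log2 scale (-0.98 ± 0.28, adjusted p = 0.00888). Runx3, the third RUNX gene, was called only between lo-hi and pre-cDC, where it was 0.69 ± 0.18 higher (adjusted p = 0.00539), with 60.7 ± 7.76 against 37.8 ± 6.90 CPM (SD, n = 3).

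The 11 genes of the ETO family and of the LDB1 complex, an assembly of ETO2 with E proteins and LIM-domain partners, gave 2 higher and 1 lower in pDC than in pre-cDC (10.6% and 11% of all genes). Tcf12, which encodes the E protein HEB, was at 34.5, 38.7 and 21.1 CPM in pre-cDC and at 71.0, 109.6 and 116 in pDC (log2 1.65 ± 0.21, edgeR, adjusted p = 8.31e-07). Lmo2, a bridging partner, was higher by 0.66 ± 0.17 (adjusted p = 0.00327), and Lyl1, a basic helix-loop-helix factor, was lower at -1.58 ± 0.19 (adjusted p = 1.86e-07). Ssbp2, which protects LDB1, was called only between pDC and lo-lo (-0.71 ± 0.17, adjusted p = 0.00287). Cbfa2t2, the relative of Cbfa2t3, measured between 6.99 and 9.20 CPM on average in the populations and was not called.

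Of 10 Ikaros relatives and NuRD subunits tested, Ikzf2 alone was called between pDC and pre-cDC, where 10.6% of all genes were higher (log2 1.09 ± 0.30, edgeR, adjusted p = 0.00686). Its pDC libraries, at 11.3, 22.5 and 25.8 CPM, all exceeded those of pre-cDC, at 10.7, 11.1 and 5.43. Hdac2 was lower in pDC than in lo-lo (-0.78 ± 0.19, adjusted p = 0.00321) and Rbbp4 lower in lo-hi than in pre-cDC (-0.79 ± 0.21, adjusted p = 0.00588). Ikzf3 lay between 12.7 and 16.2 CPM on average with no call. Of 5 relatives and corepressors of BCL11A and ZEB2, edgeR called 0 in each comparison. At most 1 gene had an unadjusted p under 0.05, between pDC and lo-lo, as had 4853 of all 15293 genes there. Zeb1 stood at 14.3 to 16.2 CPM on average and Bcl11b at 0.45 CPM or less, under the floor of 3 counts.

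**Figure D5:**
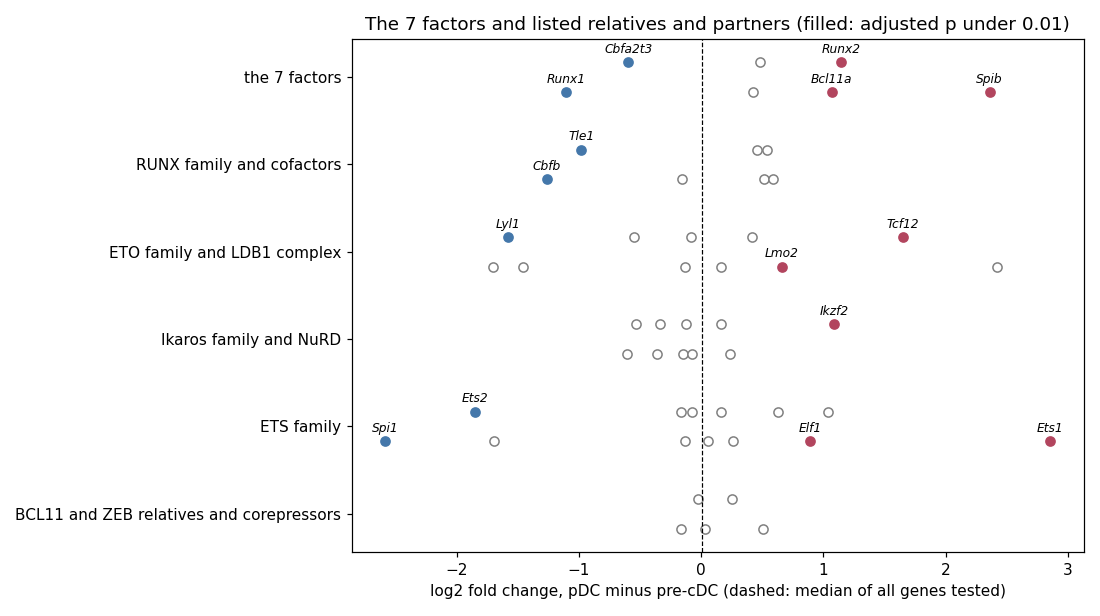
Log2 fold changes between pDC and pre-cDC (horizontal axis) of the 7 factors and of 46 tested relatives and partners by list; named filled points passed an adjusted p under 0.01 in edgeR, and the dashed line is the median of all genes tested (0.01). Spib and Ets1 lie far right and Spi1 far left, while the BCL11 and ZEB relatives hold open points only.

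A further list, of which 6 genes are reported, held genes known from other work to be controlled by 1 or more of the factors. All 6 were called over the 4 populations (19.8% of all genes), and between pDC and pre-cDC 1 (Tcf4) was higher and 4 lower (10.6% and 11% of all genes). The list was chosen with earlier results known and is no independent evidence of a direction. Tcf4 was at 589, 738 and 354 CPM in pre-cDC, at 1455, 1789.8 and 1364 in lo-lo, at 2196, 2709.7 and 2555 in lo-hi and at 1693, 2609 and 3132 in pDC. Its first step was the only step called (lo-lo minus pre-cDC, log2 1.46 ± 0.25, edgeR, adjusted p = 0.00247), as for Bcl11a and Runx2. Unlike for those genes, every lo-hi library of Tcf4 lay above every lo-lo library, with means of 2487 and 1536 CPM, although this step was not called. Id2, the target of repression named above for ZEB2 and ETO2, was at 51.5, 50.3 and 59.4 CPM in pre-cDC and at 24.6 or less in each other library (lo-lo minus pre-cDC, -1.55 ± 0.22, adjusted p = 3.12e-05). Zeb2 and Cbfa2t3 were not called in that comparison (0.31 ± 0.33 and -0.05 ± 0.17).

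The other genes named from this list encode receptors. Csf1r, for the macrophage growth factor, fell from 90.9 ± 20.1 CPM (SD, n = 3) in pre-cDC to 7.21 ± 0.71 in pDC (log2 -3.66 ± 0.22, edgeR, adjusted p = 4.90e-12), with calls at the first step and between lo-hi and lo-lo. Ccr2, a chemokine receptor used in exit from marrow, was lower in pDC (-1.88 ± 0.21, adjusted p = 2.47e-07). Flt3, the receptor for the growth factor of dendritic cells, was lower in pDC than in lo-lo (-0.64 ± 0.15, adjusted p = 0.00235) and not called between pDC and pre-cDC.

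For each of the 7 factors, the genes with the most similar course were found by Pearson's r of log2 CPM over the 12 libraries, among the 10808 genes averaging 10 counts or more. These r values describe 12 points that share depth, populations and mice. Spib was followed most closely by Csf2rb2 (r = 0.993), Nucb2 (0.993) and A530040E14Rik (0.991). The closest to Bcl11a were Tcf12 (0.991), Top1 (0.982) and Man2a1 (0.979), and those to Runx2 were Tubgcp5 (0.981), Tcf4 (0.981) and Ptprf (0.979). Runx1 was closest to H2afy (0.982), Bcl2 (0.974) and Osbpl3 (0.973).

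Zeb2 was closest to Prrc2c (0.977), Trip11 (0.977) and Smg1 (0.976), Cbfa2t3 to Kif2a (0.960), Ilkap (0.939) and Sptbn1 (0.931), and the genes close to Ikzf1 included Kctd12 (0.954) and Aff3 (0.9499). Among the 7 factors, the most similar pairs were Bcl11a with Runx2 (r = 0.966) and Runx2 with Ikzf1 (0.945). Runx1 and Cbfa2t3 had r = 0.780 with each other and -0.57 and -0.73 with Spib.

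The stretches before the transcription starts of the 7 genes were searched for E-boxes, the letters CANNTG to which E proteins bind, because 3 of the genes rose together with Tcf4. The windows hold 250 bases upstream of RefSeq starts on GRCm38.p6, and both strands read the same letters for this motif. Over all 32851 promoters, 66.2% held at least 1 E-box. Shown here are Spib, the gene with the largest rise, with 2 E-boxes, Bcl11a with 1, and the proximal start of Runx1, which fell, with 0. The windows shown are a choice and set no rule, since the distal Runx1 window held 3 E-boxes. E-boxes are in capitals and each sequence is given on the strand of its gene.
Spib, chr7:44532072-44532321, minus strand: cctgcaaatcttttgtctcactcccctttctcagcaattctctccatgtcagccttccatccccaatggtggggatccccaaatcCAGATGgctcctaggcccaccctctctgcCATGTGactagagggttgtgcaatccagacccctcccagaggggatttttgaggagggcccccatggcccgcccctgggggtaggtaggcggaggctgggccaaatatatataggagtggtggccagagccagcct
Bcl11a, chr11:24080445-24080694, plus strand: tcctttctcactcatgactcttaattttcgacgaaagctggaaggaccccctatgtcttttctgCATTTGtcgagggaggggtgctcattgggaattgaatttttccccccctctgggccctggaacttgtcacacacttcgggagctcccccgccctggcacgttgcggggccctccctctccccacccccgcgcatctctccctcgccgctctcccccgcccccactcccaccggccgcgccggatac
Runx1 proximal, chr16:92697330-92697579, minus strand: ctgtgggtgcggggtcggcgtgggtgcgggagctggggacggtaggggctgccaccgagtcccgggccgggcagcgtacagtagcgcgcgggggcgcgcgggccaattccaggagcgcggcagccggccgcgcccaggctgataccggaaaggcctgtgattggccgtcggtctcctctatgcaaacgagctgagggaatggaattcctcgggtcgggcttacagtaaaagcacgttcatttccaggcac

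The Runx2 window held 1 E-box, the distal Runx1 window 3, and the Cbfa2t3 windows 4 and 1, while the windows of 4 Zeb2 starts and 2 Ikzf1 starts held 0. The form CAGGTG or its reverse complement CACCTG, found in 17.2% of all promoters, occurred 1 time each in the distal Runx1 window and in 1 of the Cbfa2t3 windows. The RUNX letters TGTGGT or their reverse complement ACCACA (14.0% of all promoters) occurred in the Runx2 window alone. The ETS core GGAA or TTCC, which 93.4% of promoters hold, was present in all windows but 1 of Ikzf1. With E-boxes in 66.2% of promoters, these matches do not set the 7 genes apart, and a match is a stretch of letters and no measured binding site.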

How the data were processed

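Bulk SCRB-seq, which reads mostly the 3' ends of transcripts, was done on 12 libraries, 3 for each of 4 sorted populations. The authors filtered barcodes with zUMIs, mapped reads with STAR 2.5.2b to mm10 and assigned them to Ensembl genes of GRCm38. The table deposited by the authors holds raw integer counts, genes by wells, and whether these are reads or molecular identifiers is not given in the sources used here. Gene positions are those of GENCODE vM21 and promoter sequences those of RefSeq, both on GRCm38, and 21410 of 21754 identifiers had a symbol.

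Wells were put into populations by the rank match to the study's source values, and the deposited labels were an alternative grouping. In R 4.3.3, edgeR 4.0.16 fitted all 12 libraries at once (TMM, robust quasi-likelihood F test, populations as the sole factor) to genes averaging 1 count or more (15293 genes tested, 6461 left out), with Benjamini-Hochberg adjustment over all genes and a cutoff of 0.01. Fold changes carry SEs and 95% intervals of the fit. Floors of 3 counts cover counting error only. The 7 genes and all lists were chosen with earlier results of these data known. Beside the 7 genes, those named are listed genes past the cutoff (up to 4 a list and comparison), close relatives of the 7 with their values, and for each of the 7 the 3 most correlated genes, of which some items are not reported here. The overlapping genes Gm20388, Zeb2os, Supt3 and Runx2os1 were named after their values were seen. Alternatives were DESeq2 1.42.0, its size factors, other filters, a cutoff of 0.05, thinning, a replicate block, fits of 6 libraries, the deposited labels, and leaving out each library. The steps were tested on simulated data.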

Additional observations from a re-analysis of the deposited data

How the results depend on the processing

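Of the 16 called differences of the 7 genes, 16 kept direction and call under DESeq2, the replicate block, no filter on low counts and a cutoff of 0.05, 15 with DESeq2 size factors, 14 after thinning and in fits of the 6 libraries compared, and 13 with filterByExpr. Leaving out 1 library kept 156 of 192 and turned none. With 1 library left out, the numbers called ranged from 4 to 5 over the 4 populations, from 2 to 3 for lo-lo minus pre-cDC, from 0 to 2 for lo-hi minus lo-lo, from 0 to 1 for pDC minus lo-hi, from 4 to 5 for pDC minus pre-cDC, from 2 to 2 for pDC minus lo-lo and from 3 to 4 for lo-hi minus pre-cDC. For lo-hi minus lo-lo, filterByExpr and thinning each left 1 call, and the count was 0 without any 1 of the lo-lo libraries or of lo-hi replicates 1 and 2, and 1 without pre-cDC replicate 1 or pDC replicate 2. For pDC minus lo-hi, 1 gene (Runx1) was called with no filter, at 0.05, after thinning, with the replicate block (adjusted p = 0.00318, edgeR) and by DESeq2, and without lo-hi replicate 1 or pre-cDC replicate 2 or 3. The causes were not tested.

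The reported fit has no replicate block, since no source ties a number to a mouse, and 16 of 18 same-numbered pairs of libraries had correlated deviations (r over 0.1) but the lowest was -0.259. Of 12 libraries, 10 correlated best with their own number. The block called 6 of 7 genes over the populations (3708 of all genes, 3029 without the block). It called 6 for pDC minus pre-cDC (3861 of all genes, 3307 without) and 3 for pDC minus lo-lo (2569 of all genes, 2106 without). Runx1, Ikzf1 and Cbfa2t3 each gained a call in 1 comparison (-0.84, 0.47 and -0.55).

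With the deposited labels, 0 of the 7 genes were called in each of the 7 tests. Signs turned for lo-lo minus pre-cDC in Runx1 (-0.06) and Ikzf1 (-0.053), for lo-hi minus lo-lo in Zeb2 (-0.10), for pDC minus lo-hi in Runx2 (0.33), Runx1 (0.57), Cbfa2t3 (0.18) and Ikzf1 (0.25), for pDC minus pre-cDC in Runx1 (0.04), and for pDC minus lo-lo in Runx1 (0.10), Zeb2 (-0.071) and Ikzf1 (0.33). Elsewhere only uncalled values near 0 turned. Ikzf1 in pDC minus lo-lo was 0.015 with DESeq2 size factors, 0.028 with no filter, 0.023 with filterByExpr, 0.13 after thinning, 0.014 in DESeq2 and 0.034 in 6 libraries, and Zeb2 in lo-hi minus lo-lo was -0.037 after thinning. Leaving out 1 library turned some fits of Cbfa2t3 in lo-lo minus pre-cDC (-0.19 to 0.059), of Zeb2 in lo-hi minus lo-lo (-0.15 to 0.27), of Runx2 (-0.12 to 0.11), Zeb2 (-0.048 to 0.33) and Cbfa2t3 (-0.25 to 0.026) in pDC minus lo-hi, and of Zeb2 (-0.029 to 0.37) and Ikzf1 (-0.058 to 0.13) in pDC minus lo-lo.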
